A study of Mus musculus with 165 samples.

Results

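The 9 genes described here encode enzymes that make, recycle or use glutathione: *Gclc* and *Gclm* (synthesis), *Gsr* (recycling), the cytosolic transferases *Gstm1*, *Gstp1*, *Gsta4* and *Gsto1*, and the membrane-bound transferases *Mgst1* and *Mgst3*. They were chosen by symbol, and all 9 were among the 36255 genes of the table. PUER cells are a mouse myeloid progenitor line without endogenous PU.1. They express a fusion of PU.1 with part of the estrogen receptor, which 4-hydroxytamoxifen (OHT) turns on, and every group shares this genotype and this single line. Undifferentiated cells were grown in IL3 (5 ng/ml) without OHT (3 libraries). For the macrophage course, IL3-OHT, cells stayed in IL3 and received 200 nM OHT (81 libraries). For the neutrophil course, GCSF-OHT, cells were moved to GCSF (10 ng/ml) for 48 h, which ended at GCSF 0h (3 libraries), and then received 100 nM OHT (78 libraries). Each course had 27 time points from 1h to 168h, with 3 libraries each except GCSF-OHT 96h, 112h and 152h, which had 2. In the pre-treatment, which is the comparison of GCSF 0h with undifferentiated cells, the addition of GCSF, the withdrawal of IL3 and the 48 h of culture cannot be told apart. The courses differ in cytokine, in pre-treatment and in OHT dose, and these cannot be told apart in a comparison between them. Each time point came from its own culture plate, cells taken after 24h were detached with trypsin, and fresh OHT was given with new medium at 40h, 88h and 136h, so that time and handling cannot be told apart either.

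Glutathione is a tripeptide of glutamate, cysteine and glycine. Its first and rate-limiting step is catalysed by glutamate-cysteine ligase, a dimer of the catalytic subunit GCLC and the modifier subunit GCLM, which raises the activity of the catalytic subunit. Glutathione reductase, the product of *Gsr*, returns oxidized glutathione to its reduced form with NADPH, and the transferases join glutathione to electrophiles or, in several members, reduce peroxides. Neutrophils and macrophages make oxidants to kill microbes, and glutathione is part of how they protect themselves. Many genes of this pathway carry an antioxidant response element, the site bound by NRF2 with small MAF proteins, whose core is TGACNNNGC.

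Between 14600246 and 33147945 reads per library lay on genes (median 21960878), and the test covered the 17414 genes that reached a normalized count of 5 anywhere, all 9 members among them. A count of 3 reads corresponded to a normalized count of 1.96 to 5.51, depending on the library, which is the floor below which a value cannot be told from 0 by counting error alone. The cells carried markers of the myeloid lineage in every group: the summed normalized count of 8 neutrophil markers was 260412 to 267007 in the undifferentiated libraries, 334169 to 371471 at GCSF 0h, 701002 to 747554 at GCSF-OHT 168h and 232789 to 265374 at IL3-OHT 168h. The sum of 7 macrophage markers was 2714 to 2982, 868 to 1163, 8766 to 9911 and 12719 to 13772 in the same order, and that of 5 progenitor markers 11252 to 12518, 5844 to 6462, 2822 to 2953 and 2805 to 3067. Of the other lineages, 5 lymphoid markers summed to at most 21.5 in any library, 7 erythroid markers to at most 132 and 6 mast cell and basophil markers to at most 326. Some defining markers were low in the labelled cell types: *Csf1r*, the receptor for macrophage colony-stimulating factor, stayed at or below 56.3 normalized counts in every library, and the progenitor marker *Cd34* did not exceed 7.79. The macrophage sum thus differed between these groups. So did the neutrophil sum, except between undifferentiated cells and IL3-OHT 168h, where its libraries overlapped. Single neutrophil markers went both ways by the rule for calls given below. Of the 8, 3 were called higher and 2 lower at IL3-OHT 168h (10.2% and 15.2% of all genes). At GCSF-OHT 168h these counts were 5 and 2 (12.1% and 12.6%). The part of the markers in the results was not tested. Replicate 3 of GCSF-OHT 104h stood furthest apart from its group, with a chi-square per gene of 47.5 and 68.5. The median was 5.73 over 162 replicate pairs. Values of that library are named where they are printed below. Smaller departures, not marked below, were also seen. Examples are replicate 1 of IL3-OHT 104h (18.8 and 19.5) and replicate 3 of IL3-OHT 128h (17.7 and 19.2). In bulk RNA, fewer cells of a type and less RNA per cell cannot be told apart.

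The build of the table, GRCm38, is also that of the RefSeq promoter entries (GRCm38.p6), which covered 6 of the 9 members (not *Gclc*, *Gsr* and *Gsta4*), and the 250 bases before each start site were searched on both strands. The core TGACNNNGC lay in the windows of *Gclm* and *Mgst1*, as it did in 10.2% of 32851 windows of all genes. A variant with G in place of the C, TGAGNNNGC, searched after the sequences had been read, lay in the window of *Gstp1* in 2 places and in 14.4% of all windows. The stretches are shown because *Gclm* and *Gstp1* differed in level and in timing between the courses, and *Mgst1* holds the same core as *Gclm*. The RefSeq start sites of *Mgst1* and *Gstp1* lie inside the GENCODE spans given below for these genes, so that the *Mgst1* stretch and part of the *Gstp1* stretch fall within the spans. The stretches are written along the strand of the gene, with the letters of the motif (or of its reverse complement) in capitals.
Gclm, chr3:122245413-122245441, + strand: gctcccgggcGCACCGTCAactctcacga
Mgst1, chr6:138140461-138140489, + strand: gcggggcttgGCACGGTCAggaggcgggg
Gstp1, chr19:4037968-4037996, - strand: tccaacgtgtTGAGTCAGCatccggggcg
The matches shown for *Gclm* and *Mgst1* are on the strand opposite to the gene and that shown for *Gstp1* on the strand of the gene. The second match in *Gstp1*, not shown, is on the opposite strand, 0 bases from the start site. A match describes the letters only, and binding was not measured.

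Per kilobase of exon, the order of the members in undifferentiated cells was *Gstm1* (6090 normalized counts per kilobase), *Mgst1* (3369), *Gstp1* (3253), *Gsto1* (2074), *Gsr* (1398), *Gclc* (499), *Mgst3* (285), *Gclm* (281) and *Gsta4* (13.4). At GCSF-OHT 168h *Gstm1* still led (7499), while *Gclm* (752 per kilobase) stood above *Gclc* (222 per kilobase). *Gsta4* was the single member near the floor, with means between 5.04 and 24.0 in all groups of both courses. Its paralogs *Gsta1*, *Gsta2* and *Gsta3* did not reach the minimum for testing, so the alpha class was barely represented in these cells. *Gclc* and *Gsta4* lie on chromosome 9, 388288 bases apart. Some members share transcript sequence with other genes: 38.5% of the 31-base words of *Gstp1* transcripts also occur in *Gstp2* (mean normalized count 21.8), 28.8% of those of *Gstm1* occur elsewhere, mostly in *Gstm2-ps1* (mean 4.99), and 5.61% of those of *Gclm* occur elsewhere, mostly in *Ppia* (mean 15837). How the authors' quantification divided such reads is not known, so values of *Gstp1*, *Gstm1* and *Gclm* are uncertain to that extent. The other members shared at most 1.31%.

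**Figure D1:**
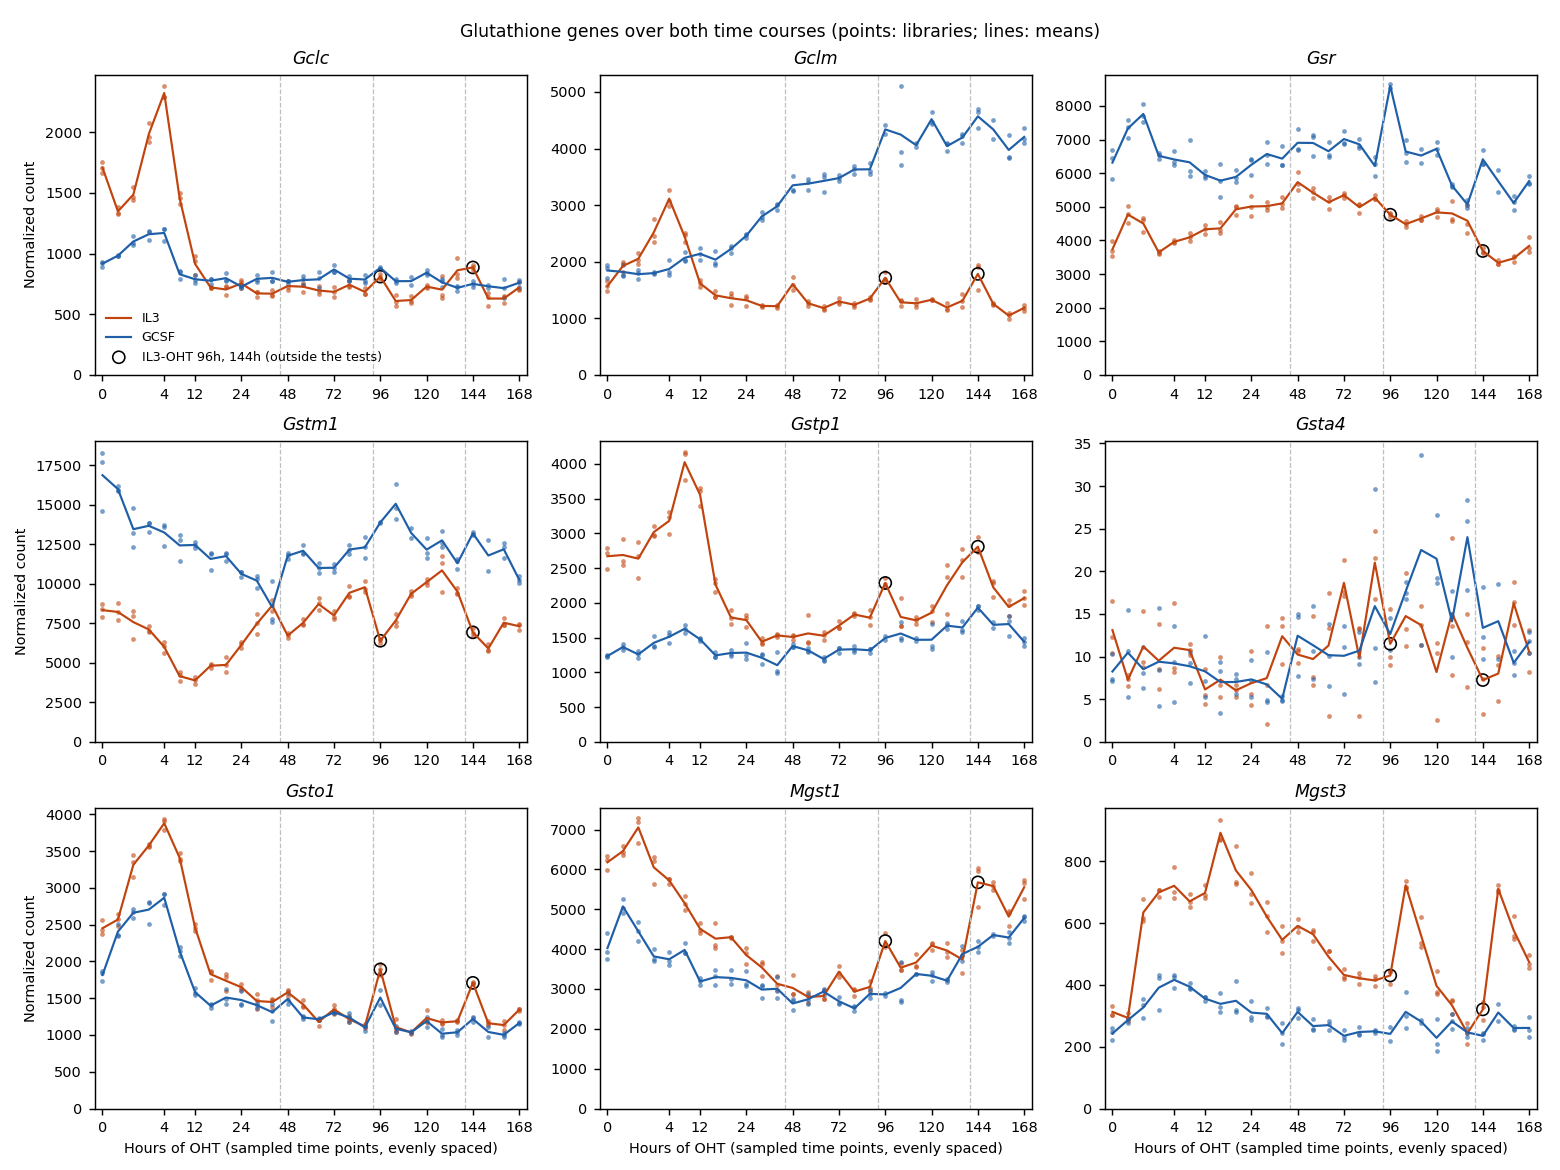
Normalized counts (linear axes from 0) of the 9 members over the IL3 course (orange) and the GCSF course (blue). The horizontal axis gives the sampled time points at even spacing, not to scale, with 0 standing for undifferentiated cells in the IL3 course and for GCSF 0h in the GCSF course. Each point is a library, lines join the means, dashed lines mark fresh OHT after 40h, 88h and 136h, and circles mark the means of IL3-OHT 96h and 144h, which entered no test. The GCSF line of *Gclm* climbs from 1845 to 4204 while its IL3 line peaks at 4h and falls.

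*Gclc*, the catalytic subunit (ENSMUSG00000032350, chr9:77754535-77794485, + strand), was at 1756, 1662 and 1706 normalized counts in the undifferentiated libraries and at 893, 933 and 925 at GCSF 0h, so every library at GCSF 0h was below every undifferentiated one. The log2 fold change was -0.90 (standard error 0.06, adjusted p = 5.52e-27, limma). In IL3-OHT it first dipped to a mean of 1348 at 1h and then peaked at 4h, where the 3 libraries read 2292, 2384 and 2293. That peak was short. At 8h the libraries read 1408, 1502 and 1454 and at 12h 942, 981 and 821, both steps being called (log2 fold changes -0.68 and -0.67, standard error 0.06 for each). From 16h on, all IL3-OHT means lay between 609 and 886. In GCSF-OHT the peak was also at 4h but lower, with 1104, 1204 and 1201, and no later time point passed the threshold against GCSF 0h. Out of 27 such tests 0 passed both thresholds with limma or with edgeR, against 15.4% of the tests over all genes. With limma, 24 had an unadjusted and 22 an adjusted p under 0.05. At 168h the libraries of both courses overlapped, with 697, 762 and 704 in IL3-OHT and 727, 769 and 783 in GCSF-OHT.

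*Gclm*, the modifier subunit (ENSMUSG00000028124, chr3:122245557-122270732, + strand), took another path. Its undifferentiated libraries read 1476, 1570 and 1660, and those at GCSF 0h 1721, 1881 and 1934, a log2 difference of 0.23 (standard error 0.06) that is under the fold threshold. In IL3-OHT it shared the 4h peak of the catalytic subunit, with 2992, 3077 and 3272, and was back to 1673, 1621 and 1560 at 12h. By 168h its 3 libraries read 1133, 1243 and 1177, below all undifferentiated ones, at a log2 difference of -0.40 (standard error 0.06) that was inside the fold threshold. In GCSF-OHT no early peak was seen. The level climbed after 16h, where its mean was 2037, reached 3258, 3274 and 3517 at 48h, and stood at 4160, 4360 and 4092 at 168h. Against GCSF 0h that made a log2 fold change of 1.19 (2.28-fold, standard error 0.06, adjusted p = 4.70e-37, limma), and 18 of 27 time points were called higher, against 8.39% over all genes and time points. *Gclm* was the member with the largest fold between the courses: at 160h GCSF-OHT exceeded IL3-OHT 3.79-fold.

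Because both subunits come from the same libraries, their ratio does not depend on the scaling between libraries. The ratio of *Gclm* to *Gclc* normalized counts was 0.919 ± 0.070 (SD, n = 3) in undifferentiated cells and 2.01 ± 0.081 at GCSF 0h. It then rose in GCSF-OHT to 3.38 ± 0.076 at 24h, 4.37 ± 0.15 at 48h and 6.10 ± 0.41 at 144h, and was 5.54 ± 0.27 at 168h. In IL3-OHT it was 1.34 ± 0.075 at 4h, 1.76 ± 0.20 at 24h and 1.64 ± 0.025 at 168h. The first rise of the ratio, before OHT, came with the fall of *Gclc*, and the later rise in GCSF-OHT with the climb of *Gclm*.

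**Figure D2:**
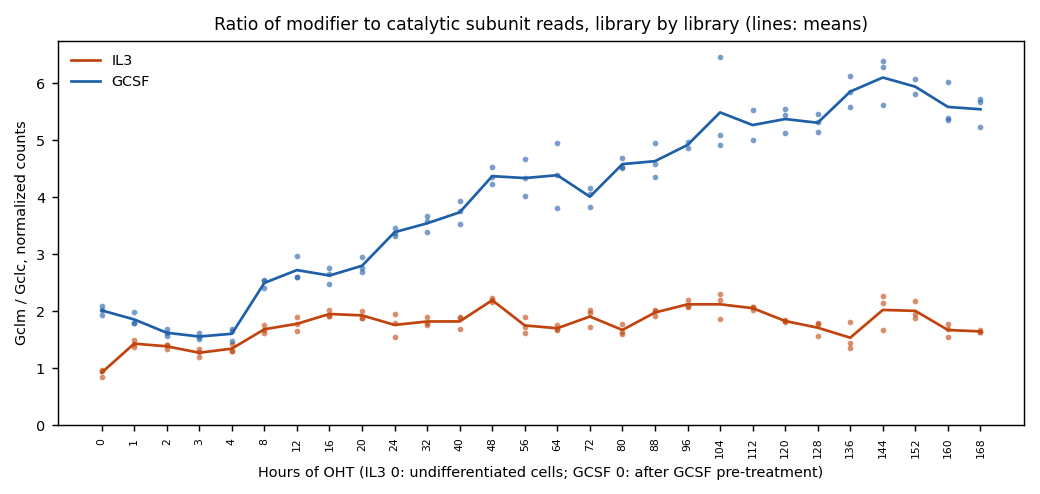
Ratio of *Gclm* to *Gclc* normalized counts in each library (points) and its mean (lines) over the IL3 course (orange) and the GCSF course (blue), with time points evenly spaced. Every library of the GCSF course lies above every library of the IL3 course at each time point, and the highest mean, 6.10, is that of GCSF-OHT 144h.

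*Gsr*, glutathione reductase (ENSMUSG00000031584, chr8:33652523-33698163, + strand), was at 3682, 3548 and 3979 in undifferentiated cells and at 5829, 6439 and 6675 at GCSF 0h, with no overlap. The log2 fold change was 0.76 (1.69-fold, standard error 0.05, adjusted p = 3.59e-27, limma). In GCSF-OHT 0 of 27 time points passed both thresholds against GCSF 0h with limma or edgeR, against 15.4% of the tests over all genes with limma. Of these tests of *Gsr*, 13 had an unadjusted p under 0.05 with limma, and the same 13 an adjusted p under 0.05. Its means within that course still ranged 1.70-fold, from 5070 at 136h to 8597 at 96h. At 168h its libraries read 5696, 5914 and 5687. In IL3-OHT *Gsr* climbed to 6026, 5673 and 5501 at 48h, which was its single called time point out of 25 against undifferentiated cells (26.7% of such tests were called over all genes), and came back to 4088, 3777 and 3648 at 168h. The highest values of the gene were the 2 libraries of GCSF-OHT 96h, 8665 and 8529, which stood above all libraries of 88h (6476, 6264 and 5905) and of 104h (6601, 6343 and, in the replicate 3 that stood apart, 6988).

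*Gstm1*, a mu-class transferase that is abundant in granulocyte precursors (ENSMUSG00000058135, chr3:108012255-108017973, - strand), rose in the pre-treatment, from 8407, 8706 and 7861 to 14615, 17698 and 18271. The log2 fold change was 1.01 (2.02-fold, standard error 0.07, adjusted p = 1.41e-27, limma), and no library overlapped. After OHT it first fell in both courses, with different timing. In IL3-OHT it fell to 4079, 3935 and 3630 at 12h, less than all undifferentiated libraries, and then came back to a mean of 10839 ± 1190 (SD, n = 3) at 128h before ending at 7097, 7437 and 7392. In GCSF-OHT it declined to 7600, 10157 and 7760 at 40h, recovered to 14755, 14094 and 16311 at 104h (the last in the replicate 3 that stood apart), and ended at 10040, 10201 and 10511. That last level was lower than at GCSF 0h by 0.71 on the log2 scale (standard error 0.07, adjusted p = 1.52e-17, limma) but still above every undifferentiated library.

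*Gstp1*, the pi-class transferase (ENSMUSG00000060803, chr19:4035407-4037985, - strand), moved the other way in the pre-treatment, from 2795, 2724 and 2495 to 1225, 1232 and 1244, a log2 fold change of -1.11 (2.16-fold lower, standard error 0.08, adjusted p = 7.77e-27, limma). In IL3-OHT it peaked at 8h, later than *Gclc* and *Gclm*, with 4137, 3773 and 4167. The step from 12h (3657, 3610 and 3401) to 16h (2163, 2336 and 2285) was the steepest of its course (-0.65 on the log2 scale, standard error 0.08), and the lowest mean, 1440.1, was reached at 32h. *Gstp1* then climbed back to a mean of 2586 at IL3-OHT 136h and stood at a mean of 2067 at 168h. The GCSF-OHT course had a narrower range, with means between 1102 at 40h and 1931 at 144h, and ended at 1379, 1442 and 1496. Against GCSF 0h, 1 of 27 time points was called higher, against 8.39% over all genes and time points.

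*Gsta4*, an alpha-class transferase known for conjugating lipid peroxidation products (ENSMUSG00000032348, chr9:78182774-78209349, + strand), was measured with few reads. Undifferentiated libraries read 10.5, 12.3 and 16.5 normalized counts and GCSF 0h libraries 7.39, 7.08 and 10.3. The standard error of its log2 fold changes between 2 groups of 3, 0.44, was several times that of any other member. None of its comparisons at 168h was called, and the interval of its change at IL3-OHT 168h ran from -1.16 to 0.59 on the log2 scale (95%). Calls were made at other times. It was higher than at GCSF 0h at 4 of 27 time points (104h, 112h, 120h and 136h, against 8.39% over all genes and time points), with log2 fold changes from 1.03 to 1.43 (standard error 0.44 to 0.49, adjusted p = 0.049 to 0.0041, limma). At GCSF-OHT 136h, the highest of these, the libraries read 28.4, 25.9 and 17.8, from 26, 26 and 17 reads. At 104h they read 18.8, 17.4 and, in the replicate 3 that stood apart, 16.7. At 112h the 2 libraries read 11.3 and 33.7. Against undifferentiated cells it was called lower at 1 of 25 time points, IL3-OHT 12h, where the libraries read 4.41, 5.51 and 8.48 (adjusted p = 0.047, limma).

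*Gsto1*, an omega-class transferase with thiol transferase activity (ENSMUSG00000025068, chr19:47854970-47864790, + strand), ran a similar course in both cytokines. From 2370, 2561 and 2423 in undifferentiated cells it rose to 3936, 3787 and 3914 at IL3-OHT 4h, and from 1870, 1737 and 1840 at GCSF 0h to 2765, 2915 and 2917 at GCSF-OHT 4h. Both then fell below their start. At 168h the libraries read 1324, 1356 and 1348 in IL3-OHT and 1161, 1149 and 1174 in GCSF-OHT, log2 fold changes of -0.87 and -0.64 (standard error 0.05 for each). In IL3-OHT 16 of 25 time points were called lower than undifferentiated cells, against 15.7% over all genes and time points.

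*Mgst1*, a microsomal and mitochondrial outer membrane transferase with peroxidase activity (ENSMUSG00000008540, chr6:138140316-138156755, + strand), traced a U shape in both courses after an early peak. It went from 5981, 6231 and 6325 in undifferentiated cells to a peak of 7294, 6666 and 7200 at IL3-OHT 2h, a mean of 2801 ± 140 (SD, n = 3) at 56h, and 5255, 5734 and 5663 at 168h. At GCSF 0h it was lower, with 4409, 3742 and 3924 (log2 fold change -0.62, standard error 0.06). From there it reached a mean of 5071 at GCSF-OHT 1h and then fell to 2562, 2541 and 2439 at 80h. At GCSF-OHT 168h it read 4716, 4801 and 4821, all above the GCSF 0h libraries. That log2 difference, 0.25 (standard error 0.06), was inside the fold threshold. A call against undifferentiated cells was made at 14 of 25 IL3-OHT time points, all of them lower, against 15.7% lower over all genes and time points.

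*Mgst3*, a microsomal transferase that can also make leukotriene C4 (ENSMUSG00000026688, chr1:167371966-167393841, - strand), was the member with the most abrupt changes. Between IL3-OHT 1h and 2h it went from 309.6, 289 and 282 to 679, 617 and 608, a log2 fold change of 1.11 (2.16-fold, standard error 0.10, adjusted p = 1.29e-18, limma), and it peaked at 16h with 869, 935 and 874. Later it fell, and 2 sharp rises interrupted the fall. From 88h (430.1, 419 and 395) to 104h (716, 735 and 718) it rose by 0.80 on the log2 scale, and from 136h (209.3, 278 and 245) to 152h (702, 724 and 706) by 1.55 (2.93-fold, standard error 0.10, adjusted p = 5.18e-28, limma). Both intervals follow the addition of fresh OHT at 88h and 136h, and each spans a time point that was left out of the tests. At those time points, 8 h after the addition, the means were still 431 (96h) and 321 (144h). After the first addition, at 40h (mean 546), no step was called and the means were 591 at 48h and 564 at 56h. Across all genes, 16% were called in the interval from 136h to 152h. In GCSF-OHT no step of *Mgst3* was called. Its libraries read 299, 261 and 378 at 104h (the last again in the replicate 3 that stood apart) and 285 and 337 at 152h, and the highest mean was 417 at 4h.

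A gene was called where the adjusted p was under 0.05 and the absolute log2 fold change over 0.58. By that rule 5 of the 9 members were called in the pre-treatment with GCSF, against 33.7% of all genes tested. *Gstm1* and *Gsr* were higher, and *Gstp1*, *Gclc* and *Mgst1* were lower. At 8h of OHT, 4 of 9 members were called in IL3-OHT (*Mgst3*, *Gclm* and *Gstp1* higher, *Gstm1* lower, against 29.7% of all genes) and 1 of 9 in GCSF-OHT (*Mgst3* higher, against 9.4%). At 80h the members called were *Gclc*, *Mgst1* and *Gsto1* in IL3-OHT, all lower (29.4% of all genes), and *Gclm* (higher) and *Mgst1* (lower) in GCSF-OHT (16.4%). At 168h they were *Gclc* and *Gsto1* (lower) and *Mgst3* (higher) in IL3-OHT (25.4%), and *Gclm* (higher), *Gstm1* and *Gsto1* (lower) in GCSF-OHT (24.8%). The IL3 comparisons and the pre-treatment share the undifferentiated libraries, and the GCSF comparisons share the GCSF 0h libraries with the pre-treatment. Over the whole neutrophil route, from undifferentiated cells to GCSF-OHT 168h, *Gclm* (2.68-fold) and *Gsr* (1.54-fold) were higher and *Gclc* (2.25-fold), *Gsto1* (2.11-fold) and *Gstp1* (1.85-fold) lower, against 39.1% of all genes called. Several calls lay close to the fold threshold and were lost under 1 alternative or more: *Mgst1* in the pre-treatment (-0.56 without replicate 2), *Gstp1* at IL3-OHT 8h (0.52 without replicate 3), *Mgst3* at IL3-OHT 168h (0.54 without replicate 1) and *Gsr* over the neutrophil route (0.57 without replicate 2).

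**Figure D3:**
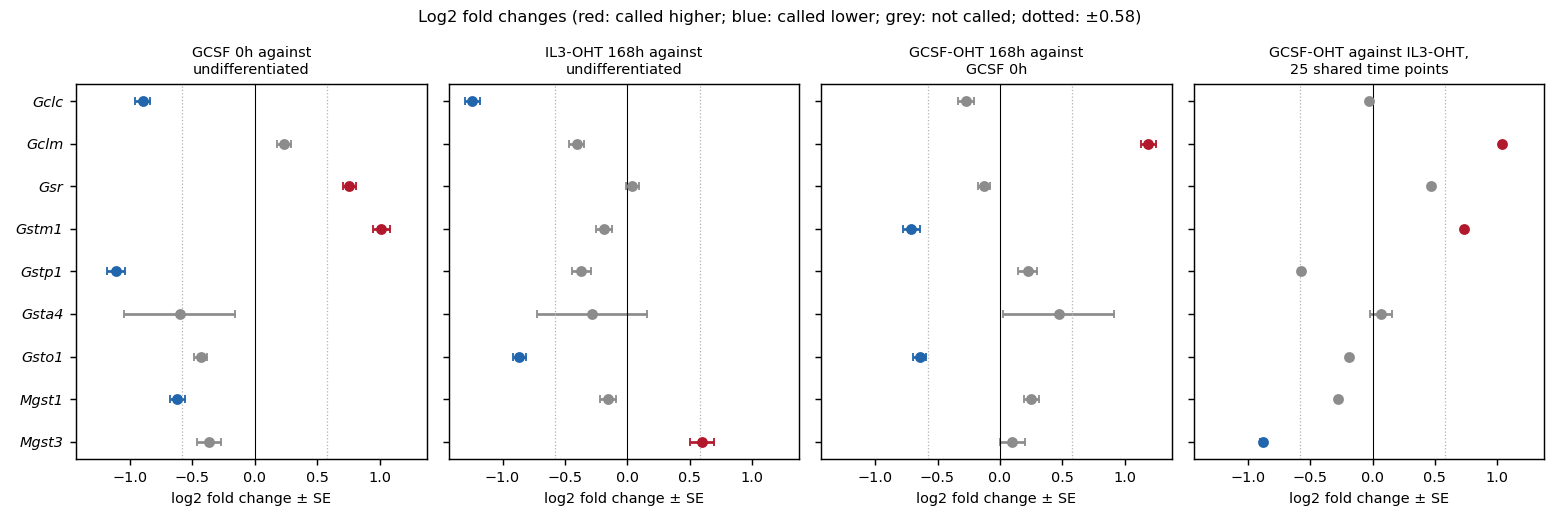
Log2 fold changes (horizontal axis) of the 9 members with their standard errors (bars) in 4 comparisons, from limma on log2(normalized count + 1). Red points were called higher, blue points lower and grey points not called, and dotted lines mark ±0.58. *Gclm* is to the right in GCSF-OHT 168h (1.19) and in the comparison of the courses (1.03), while *Gclc* is to the left in the first 2 panels (-0.90 and -1.24).

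Over the whole course, all 9 members passed the test of any change in IL3-OHT (69.7% of all genes did), though *Gsta4* and *Gsr* did not without replicate 1, nor *Gsta4* without replicate 3. The test asks for a change against undifferentiated cells beyond the fold threshold at 1 time point or more. In GCSF-OHT 7 of 9 did (47.7%), the exceptions being *Gclc* and *Gsr*, whose largest log2 fold changes against GCSF 0h were 0.36 and 0.45. Between consecutive time points, 9 of 225 steps of the members were called in IL3-OHT, against 3.65% over all genes. In GCSF-OHT 0 of 243 steps were called with limma or DESeq2, against 1.81% over all genes with limma. Of these steps, 91 had an unadjusted and 47 an adjusted p under 0.05 with limma. With edgeR 1 was called, the step of *Gsta4* from 40h to 48h (log2 fold change 1.29, adjusted p = 0.041).

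GCSF-OHT and IL3-OHT were compared directly over the 25 time points at which both were tested. Averaged over them, *Gclm* (1.03 on the log2 scale, standard error 0.01, 2.05-fold) and *Gstm1* (0.73, 1.66-fold) were higher in GCSF-OHT and *Mgst3* (-0.88, 1.84-fold) lower, which makes 3 of 9 members against 24.5% of all genes. The difference of *Gstp1* (-0.57) was just inside the fold threshold, and that of *Gsr* (0.47) was further inside it. *Gclc* differed by -0.03 on average, which conceals a change of sign with time.

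At single time points the picture was one of level for some members and of timing for others. *Gstm1* and *Gsr* were higher in every GCSF-OHT library than in every IL3-OHT library at 24 of 25 time points each, and *Gclm* at 20, where 25.1% of all pairs of gene and time point were of this kind. *Gstp1* was lower without overlap at 24 time points, *Mgst3* at 22 and *Mgst1* at 19, where 27.8% of all such pairs were. For *Gclm* the order turned: at 4h IL3-OHT was higher by 0.74 on the log2 scale, at 12h GCSF-OHT was ahead by 0.40, and from 20h on every time point was called, up to 1.92 at 160h. For *Gclc* only 3h, 4h and 8h were called, with log2 differences of -0.77, -0.99 and -0.81. *Gstm1* differed most at 12h (1.68) and overlapped at 40h, the 1 time point at which its order was not kept. *Mgst3* differed at 2h and later but not at 1h (-0.04), and not at 128h and 136h, just before its last rise in IL3-OHT. Counted over the 25 time points, calls were made at 22 for *Mgst3*, 19 for *Gclm*, 14 for *Gstm1*, 8 for *Gstp1*, 7 for *Gsr*, 3 each for *Gclc*, *Mgst1* and *Gsta4*, and 2 for *Gsto1*, against 22.7% of all pairs.

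**Figure D4:**
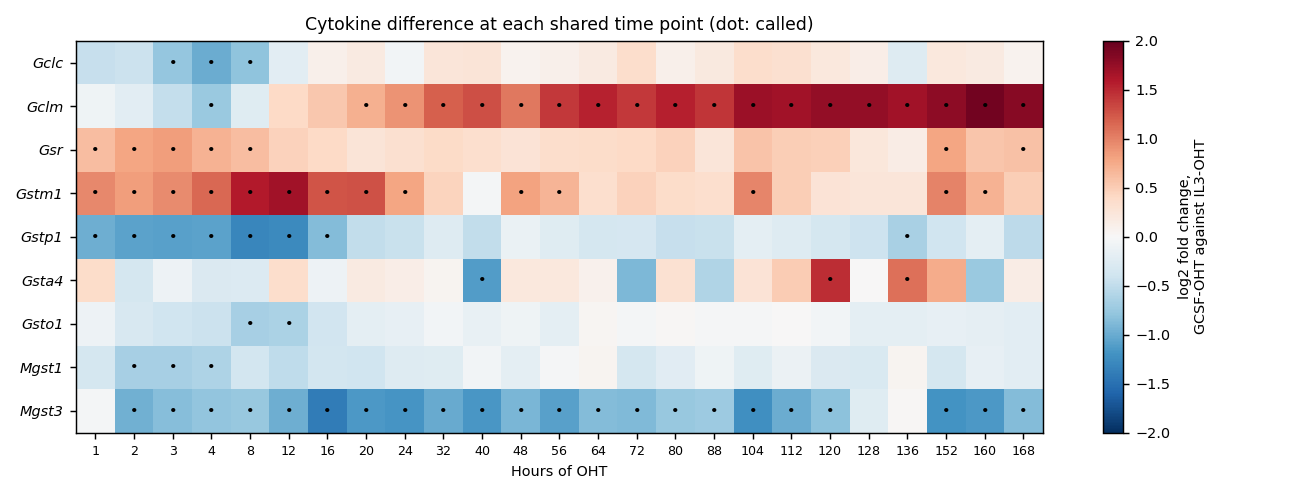
Log2 ratio of the GCSF-OHT to the IL3-OHT course (colour, from -2 in blue to 2 in red) for each member (rows) at the 25 shared time points (columns, evenly spaced). Dots mark calls. The row of *Gclm* turns from blue at 4h (-0.74) to red from 20h on, and the row of *Mgst3* is blue at all called time points.

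Since the courses start from different levels, the change from the start of OHT was also compared between them, as the interaction of OHT with course. It was tested at 8h, 80h and 168h. No member was called at 8h with limma, edgeR or DESeq2 (27.4% of all genes were with limma). With limma, 5 of 9 had both an unadjusted and an adjusted p under 0.05 but stayed inside the fold threshold. *Gstm1* (0.57) was called without replicate 3 (0.77). At 80h, *Gclm* (1.32 on the log2 scale, standard error 0.08), *Gclc* (0.99) and *Gstp1* (0.65) were called with a higher and *Gstm1* (-0.64, but -0.56 and not called without replicate 3) with a lower change in GCSF-OHT, against 21.1% of all genes. At 168h it was *Gclm* (1.59, adjusted p = 1.18e-34, limma), *Gclc* (0.97, adjusted p = 7.28e-19) and *Gstp1* (0.59), against 25.7%. The *Gstp1* call at 168h was lost without replicate 2 (0.54), with upper-quartile scaling (0.56) and with edgeR (0.57). For *Gclc* the similar end levels of both courses were thus reached by a fall during OHT in IL3, and by a fall before OHT in GCSF.

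The rest of the pathway was followed in 5 lists. For comparison with their counts, 13% of all genes were called higher and 20.7% lower in the pre-treatment, 10.2% and 15.2% at IL3-OHT 168h, and 12.1% and 12.6% at GCSF-OHT 168h. Among 24 other transferases and related membrane proteins, 16 could be tested. In the pre-treatment 4 rose and 4 fell, with a median log2 fold change of -0.14 against -0.09 over all genes. *Gstm2*, the neighbour of *Gstm1* in the mu class, fell by 1.01 on the log2 scale where *Gstm1* rose, and its log2 difference between GCSF-OHT and IL3-OHT was -1.32, again opposite in sign to *Gstm1*. *Gsto2*, the second omega-class gene, fell by 1.78 in the pre-treatment and differed by -1.13 between the courses. At 168h, 0 of the 16 rose and 2 fell in IL3-OHT, a share near that of all genes, and 0 rose and 4 fell in GCSF-OHT.

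Of 18 genes of glutathione precursor supply and breakdown, 16 were tested. *Slc7a11*, the cystine transporter that supplies cysteine, is also in the list of NRF2, related regulators and targets. It fell by 3.82 on the log2 scale in the pre-treatment (14.1-fold lower) and fell by 4.98 at IL3-OHT 168h (31.5-fold lower). At GCSF-OHT 168h it was higher by 1.99 than at GCSF 0h. *Ggt5*, a gamma-glutamyl transferase that cleaves glutathione conjugates outside the cell, rose in all 3 comparisons by 1.83, 2.47 and 2.30. *Dpep2*, a dipeptidase, fell in all 3, and *Chac1*, which degrades glutathione in the cytosol, rose at GCSF-OHT 168h by 0.95. In the list, 1 rose and 4 fell in the pre-treatment, 2 rose and 4 fell at IL3-OHT 168h, and 4 rose and 2 fell at GCSF-OHT 168h, where the median was 0.36 against 0 over all genes.

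In the list of NRF2, related regulators and targets, 19 of 20 genes were tested. It holds *Nfe2l1*, *Keap1*, *Bach1* and small MAF genes beside targets, so its counts are not counts of targets alone. In the pre-treatment 14 fell and 1 rose (median log2 fold change -1.09). *Hmox1*, heme oxygenase 1, fell by 4.82 on the log2 scale, the small MAF gene *Maff* changed by -3.20 and *Srxn1*, sulfiredoxin, by -2.59. At IL3-OHT 168h 8 fell and 1 rose, with log2 fold changes of -2.68 for *Srxn1* and -2.17 for *Txnrd1*, cytosolic thioredoxin reductase. At GCSF-OHT 168h 8 were higher and 1 lower than at GCSF 0h, led by *Hmox1* (3.41 on the log2 scale) and *Fth1*, ferritin heavy chain (2.24). Against undifferentiated cells, however, 1 was higher and 9 lower at GCSF-OHT 168h (median -0.57, against -0.11 over all genes, of which 15.5% were called higher and 23.6% lower), and over the shared time points 2 were higher and 6 lower in GCSF-OHT than in IL3-OHT (9.34% and 15.1% of all genes). The interaction at 168h was called for 12 of the 19, all with a higher change in GCSF-OHT (14.5% of all genes were, and the median was 1.06 against 0.03 over all genes). Of the members, *Gclc*, *Gstp1* and *Mgst1* were called lower in the pre-treatment and *Gstm1* and *Gsr* higher. *Gclm*, *Gsto1*, *Mgst3* and *Gsta4* were not called there.

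Peroxide and thiol enzymes (24 of 26 tested) gave 0 higher and 6 lower in the pre-treatment, 1 and 5 at IL3-OHT 168h, and 2 and 4 at GCSF-OHT 168h, with the lower shares near those of all genes. *Srxn1* and *Txnrd1* are counted here as well as among the NRF2 targets. *Gpx3*, secreted glutathione peroxidase, had log2 fold changes of -1.90 and -2.49 at the 2 endpoints, while *Gpx1*, the cytosolic glutathione peroxidase, rose by 1.10 and 0.68. NADPH-supplying enzymes, on which *Gsr* depends, were all tested (13). In the pre-treatment 3 rose, 2 fell, and the median was 0.40 against -0.09 over all genes. *Nnt*, the mitochondrial transhydrogenase, rose by 1.03 and *Idh2* by 0.91, while *Me1*, malic enzyme 1, fell by 1.03. At 168h 1 rose and 0 fell in IL3-OHT, and 1 rose and 3 fell in GCSF-OHT.

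Likeness between members was described by Pearson's r of the log2 group means, separately over 26 groups of the IL3 course and 28 of the GCSF course. *Gclc* and *Gclm* ran together in the IL3 course (r = 0.91) and apart in the GCSF course (-0.65). *Gclc* and *Gsto1*, which share the 4h peak, were alike in both (0.91 and 0.88). *Gstp1* and *Mgst1* had an r of 0.73 in the IL3 course and 0.37 in the GCSF course. *Gstm1* and *Mgst3* were opposed in the IL3 course (-0.71) but not in the GCSF course (0.12). In a search of 10646 genes with a mean of at least 50, over all 54 group means, the genes most alike in course were *Nol6* (0.96) and *Uqcc1* (0.95) for *Gsto1*, *Sun2* (0.94) and *H2az2* (0.92) for *Gstm1*, *Il18bp* (0.94) and *Tada2b* (0.94) for *Gclm*, *Arhgap11a* (0.94) and *H2az1* (0.93) for *Gsr*, *Txnrd1* (0.92) and *Adrm1* (0.92) for *Gclc*, *Leprot* (0.91) and *Atraid* (0.90) for *Mgst1*, *Esd* (0.91) and *Yjefn3* (0.91) for *Gstp1*, and *Tuba1a* (0.90) and *Dync1i2* (0.90) for *Mgst3*. For *Gsta4* no gene exceeded *Rhof* (0.69) and *Ptgir* (0.67). These are descriptions over means that share their libraries and their 2 time axes.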

How the data were processed

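RNA-Seq libraries of PUER cells (165, in 56 groups of course and time point) were assigned to groups by their labels. Titles of the GCSF 0h libraries name OHT, whereas their descriptions and the methods place them before OHT, so they were treated as not yet exposed to it. The authors quantified polyA RNA reads with Salmon against GRCm38 and divided gene counts by DESeq2 size factors, and these deposited signal values (normalized counts) were used. Versions of both tools are not given in the sources used here. Values came in whole multiples of what 1 read is worth in each library (100% of nonzero values, largest relative deviation 9.66e-15), so reads were recovered, also in the 7 libraries with a size factor near 1. Depth was 14600246 to 33147945 reads per library.

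Groups were compared on log2(normalized count + 1) with limma 3.58.1 in R 4.3.3 (1 mean per group, 159 libraries in 54 groups, mean-variance trend), with Benjamini-Hochberg adjustment per comparison over all 17414 genes tested. Adding 1 understates fold changes of low genes. As in the study, 2 IL3-OHT time points (96h, 144h) entered no test. Replicates are called biological in the methods. No replicate pair agreed within sampling noise (chi-square per gene 2.25 to 68.5 over 162 pairs, 1 being counting error alone). The scripts were tested on simulated data.

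Alternatives were pseudocounts of 0.5 and 5, no filter or a mean of at least 10, upper-quartile scaling, edgeR 4.0.16 and DESeq2 1.42.0 on recovered reads, each replicate number left out (groups of 2 kept both when number 2 was left out, and some kept a single library otherwise, assumed to vary like the rest), a replicate block, inclusion of IL3-OHT 96h and 144h, removal of the 120h groups (whose 6 libraries carry another name series), and only the groups compared. Coordinates and exon lengths come from GENCODE vM21 on GRCm38, and correlations and plots from Python 3.11.15. The members, gene lists and named-gene rule (per list, up to 4 genes with the largest change among those called and with a mean of at least 50) were chosen with earlier results of these data known.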

Additional observations from a re-analysis of the deposited data

Results flagged for a closer look

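The change from the start of OHT differed between the courses for 4 members by the interaction term of limma. At 80h the change in GCSF-OHT minus that in IL3-OHT was -0.64 on the log2 scale for *Gstm1* (adjusted p = 7.00e-09), 0.65 for *Gstp1* (1.42e-07), 0.99 for *Gclc* (3.95e-19) and 1.32 for *Gclm* (7.26e-28). At 168h it was 0.59 for *Gstp1* (adjusted p = 1.27e-06, limma), 0.97 for *Gclc* (7.28e-19) and 1.59 for *Gclm* (1.18e-34). The call of *Gstm1* at 80h was lost without replicate 3 (-0.56). That of *Gstp1* at 168h was lost without replicate 2 (0.54), with upper-quartile scaling (0.56) and with edgeR (0.57).

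The 2 time points of the IL3 course that entered no test (96h and 144h) stood apart. For 5 members all libraries of 96h, and for *Gsto1* and *Gclm* also those of 144h, were above all libraries of both neighbouring time points. The count covered only values above both neighbours, and the same share over all genes was not computed. At 96h the means of 3 libraries were 2286 normalized counts for *Gstp1*, 1892 for *Gsto1*, 4201 for *Mgst1*, 810 for *Gclc* and 1716 for *Gclm*. *Gstm1* went the other way at 96h, with libraries from 6217 to 6519 below those of 88h (9485 to 10154) and of 104h (7336 to 8089). At 144h the means were 1709 for *Gsto1* and 1785 for *Gclm*. *Gsto1* read 1814, 1902 and 1958 at 96h, against 1152, 1107 and 1095 at 88h and 1214, 1067 and 1043 at 104h. At GCSF-OHT 96h, which was tested, its 2 libraries read 1411 and 1608 and were also above those of 88h (1057, 1129 and 1121) and of 104h (1096, 1043 and 1116). Both time points come 8 h after fresh OHT and new medium. The part of handling in these values was not tested.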

How the results depend on the processing

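The counts of members called and the log2 fold changes of the members were recomputed under each alternative. Of the counts, 202 stayed within 1.5 times of the reported value and 1 did not: at 8h of OHT the interaction gave 0 calls, and 0 to 1 when each replicate number was left out in turn (1 without replicate 3). Of the log2 fold changes of single members, 1450 kept their direction and their side of the thresholds, 10 lost their call, 5 gained one, and 11 changed sign, none of these 11 being called. With upper-quartile scaling the sign changed for *Mgst3* at GCSF-OHT 80h (-0.012) and *Gsr* at GCSF-OHT 8h (-0.011), and the other changes of sign came from leaving out a replicate number. These ranged from -0.0021 to 0.15 for *Gsta4* at GCSF-OHT 8h, from -1.01 to 0.0064 for *Gsta4* at IL3-OHT 80h, from -0.036 to 0.10 for *Gsta4* between the courses, from -0.059 to 0.069 for *Mgst1* at GCSF-OHT 8h, from -0.079 to 0.11 for *Mgst3* at GCSF-OHT 80h, from -0.067 to 0.20 for *Mgst3* at GCSF-OHT 168h, from -0.032 to 0.061 for *Gsr* at GCSF-OHT 8h and from -0.018 to 0.12 for *Gsr* at IL3-OHT 168h. The cause was not tested.

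Libraries with the same replicate number did not deviate together (r from -0.054 to 0.036 over 8 comparisons), so the numbers do not pair them. With the replicate number as a block, 5 members were called in the pre-treatment, 3 in each course at 168h, and 3 between the courses, as without it. On the recovered reads edgeR called 5663 genes in the pre-treatment, 4163 at IL3-OHT 168h and 4252 at GCSF-OHT 168h, where limma called 5861, 4423 and 4310. *Gsta4*, with a few reads per library, is limited by depth, and the exclusion of IL3-OHT 96h and 144h leaves a gap in the IL3 course around each.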
